A study of Mus musculus with 12 samples.

Results

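The core circadian clock was examined in RNA of mouse Leydig cells, the testosterone-producing cells between the seminiferous tubules, after exposure to the plasticiser di-(2-ethylhexyl) phthalate (DEHP). The genes described are the activators Clock and Arntl (Bmal1), the repressors Per1, Per2, Per3, Cry1 and Cry2, the nuclear receptors Nr1d1 and Nr1d2, and the clock-controlled output gene Dbp. They were found by name among the probes that are not controls: 18 of 41174 probes carried 1 of these 10 names, out of 27670 gene names on the array. After the filter on dim probes, 8 of the 10 genes stood among the 15830 genes tested.

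Male C57BL/6J mice, 21 weeks old and kept on a cycle of 12 hours of light and dark, received 200 mg per kg per day of DEHP in corn oil by daily gavage for 21 days, or corn oil alone (vehicle). Laser capture took the Leydig cells from frozen sections of the testis, and the RNA of single caps was amplified and hybridised in pairs to two-colour arrays. Each of 2 DEHP mice, numbered 1 and 4 in the labels, was set against each of 3 vehicle mice, numbered 1, 2 and 4, in both dye orientations, which gave 12 arrays on 3 slides. The exposure groups held 4 mice each, and the other 3 mice are not analysed here. The mouse is the replicate, so each comparison of the groups has 2 against 3 animals. All groups share the strain, the sex, the oil and the gavage. The hour of day at which tissue was taken is not given in the sources used here.

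The clock is a feedback loop of transcription. CLOCK and BMAL1 bind E-box elements and switch on the Per and Cry genes, whose proteins then block CLOCK and BMAL1, while the nuclear receptors of Nr1d1 and Nr1d2 repress Arntl through ROR elements. DBP is a transcription factor that acts on D-box elements, and its own gene is driven by CLOCK and BMAL1. Clock genes of rodent Leydig cells are known to cycle over the day, whereas in developing germ cells several of them are known not to cycle.

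Detection set what could be said. Per array, 45.4% to 54.4% of the red readings and 35.5% to 46.1% of the green readings of probe spots exceeded background clearly. Leydig cell markers were present, with 10 of 10 tested, among them Insl3. However, 15 of 15 markers of spermatids and 9 of 10 of spermatocytes, both germ cells, were also tested. So were 10 of 10 Sertoli, 10 of 10 macrophage, 6 of 6 myoid and 5 of 7 endothelial markers. Of all 27670 gene names on the array, 15830 were tested. The median log2 level of the Leydig markers, relative to the mean of the 5 mice, was 0.67 in DEHP mouse 1 and -0.82 in DEHP mouse 4, against -0.55, 0.31 and 0.52 in vehicle mice 1, 2 and 4. For the spermatid markers it was -0.02 and 0.76 in the DEHP mice and 0.28, -0.62 and -0.36 in the vehicle mice. DEHP mouse 4 and vehicle mouse 1 thus lay low for Leydig markers and high for spermatid markers. In RNA of captured tissue, fewer cells of a type and less RNA per cell cannot be told apart.

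Every mouse RNA was read on several arrays, which gave 12 readings per probe in the DEHP mice and 12 in the vehicle mice. The probes of Dbp, Per1 and Nr1d2 and the brightest of the 4 Clock probes were well above background in all 12 and 12. Arntl was so in 6 DEHP and 9 vehicle readings, Per2 in 6 and 7, Cry1 in 4 and 7, and Nr1d1 in 4 and 7, each by its brightest probe. Per3 was not tested, with 1 DEHP reading and 0 vehicle readings above background. Cry2 was not tested either: its brighter probe had 1 and 1, and its other probe 0 and 0. Taking all 18 probes, 11 passed the filter and 4 were not well above background in any reading. The brightness of a probe also depends on its sequence, so intensities are not compared between genes.

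**Figure D1:**
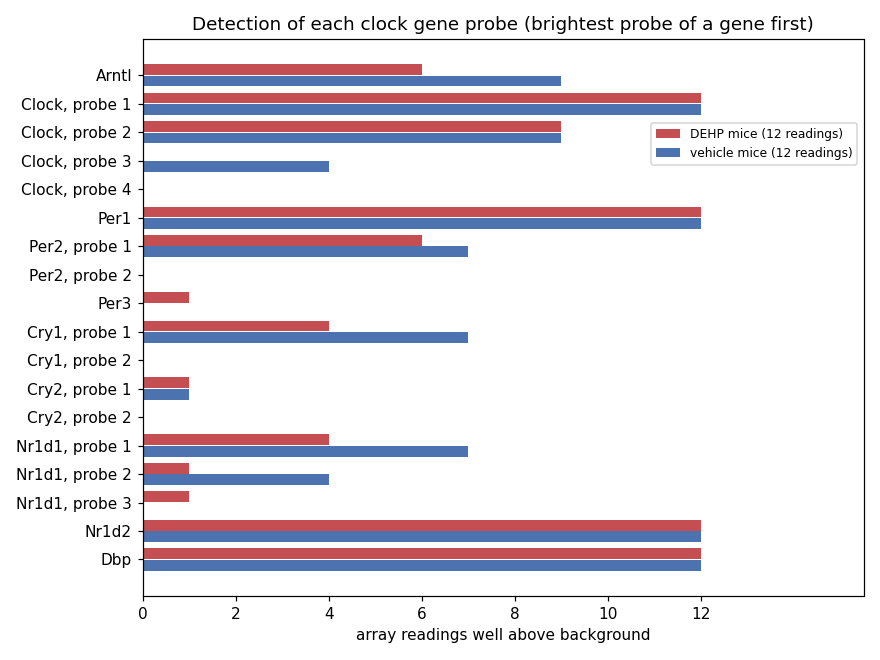
Number of array readings (x axis, of 12 per group) in which each of the 18 clock gene probes was well above background, in DEHP mice (red) and vehicle mice (blue). The bars reach 12 in both groups for Dbp, Per1, Nr1d2 and the brightest Clock probe, and stay at 0 or 1 for Per3 and Cry2.

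The activators came first. Clock, whose protein is a DNA-binding transcription factor and the partner of BMAL1, was read by its probe at mm7 chromosome 5, 76144675 to 76144734. Its log2 level relative to the mean of the 5 mice was 0.18 in DEHP mouse 1, -0.53 in DEHP mouse 4, -0.26 in vehicle mouse 1, 0.25 in vehicle mouse 2 and 0.35 in vehicle mouse 4. One mouse of each group lay low, so the groups overlapped. The means were -0.17 ± 0.50 (SD, n = 2) for DEHP and 0.11 ± 0.33 (SD, n = 3) for vehicle, a difference of -0.29 (SE 0.32) with an adjusted p of 1.00 in limma.

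A second Clock probe gave another order of mice. It lies on chromosome 5 at 76186708 to 76186767 in mm7, upstream of the first along the minus strand that carries the gene, and it is shown because its mice are ranked otherwise than by the first probe.
Clock second probe: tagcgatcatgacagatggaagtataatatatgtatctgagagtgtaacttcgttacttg
By this probe the DEHP mice stood at -0.17 and 0.27, and vehicle mice 1, 2 and 4 at 0.02, 0.30 and -0.42. It was well above background in 9 of 12 readings of either group. DEHP mouse 4 was thus the lowest of the 5 by the first probe and above 3 of the other 4 by the second. The mean of all kept Clock probes, a further dim one among them, differed by -0.12 between the groups, against -0.29 for the brightest probe alone. That further probe, above background in 0 DEHP and 4 vehicle readings, is dim in every mouse and gets no fold. It passed the filter through vehicle mice 2 and 4 alone.

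Arntl, which encodes BMAL1, showed the smallest spread of the tested clock genes (probe at chromosome 7, 109229489 to 109229548). It stood at -0.08 (mouse 1) and 0.07 (mouse 4) after DEHP, against 0.01, -0.02 and 0.02 for vehicle mice 1, 2 and 4. The difference between the groups was -0.0045 (SE 0.18), with a 95% interval from -0.46 to 0.45. Its signal lay near background, where an offset added before logs narrows differences, so a small value here does not show a steady level. With the scanner's processed signals, which carry no offset, the DEHP mice stood at -0.40 and 0.39. With no background correction, also without an offset, they stood at -0.07 and 0.07. These settings differ in more than the offset, and its part in the small range was not tested. Its RefSeq promoter held a ROR element (TAGGTCA) 31 bases after one of its annotated starts.

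Among the repressors, Per1 spread most widely. Per1 encodes a PERIOD protein, and its transcript also responds quickly to hormones in many tissues (probe at chromosome 11, 69190950 to 69191009). Its log2 level was -0.04 in DEHP mouse 1, 0.91 in DEHP mouse 4, 0.40 in vehicle mouse 1, -0.34 in vehicle mouse 2 and -0.92 in vehicle mouse 4. DEHP mouse 4 was the highest and vehicle mouse 4 the lowest, and vehicle mouse 1 lay above DEHP mouse 1, so the groups overlapped. The means were 0.43 ± 0.67 (SD, n = 2) after DEHP and -0.29 ± 0.66 (SD, n = 3) in vehicle, a difference of 0.72 (SE 0.47) or 1.64-fold, with a 95% interval from -0.46 to 1.89 and an adjusted p of 1.00 in limma. Its range over the 5 mice, 1.83, was wider than that of 95.4% of the genes tested. Without DEHP mouse 4 the difference was 0.24, and without DEHP mouse 1 it was 1.19.

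The array readings behind the Per1 values agreed between dyes. With DEHP RNA in Cy5 and in Cy3, the log2 ratios were 1.85 and 1.61 for DEHP mouse 4 over vehicle mouse 4, and -0.37 and -0.55 for DEHP mouse 1 over vehicle mouse 1. Both dyes gave the same sign in 6 of 6 mouse pairs, and 10 of the 12 arrays lay above 0. The arrays below 0 were those of DEHP mouse 1 over vehicle mouse 1.

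Per2, another PERIOD repressor, was dim (probe at chromosome 1, 91323914 to 91323973). It was well above background in 5 of 6 readings of DEHP mouse 1 but 1 of 6 of DEHP mouse 4, and in 0 of 4, 4 of 4 and 3 of 4 of vehicle mice 1, 2 and 4. Its log2 levels were 0.07 and -0.15 in the DEHP mice and -0.17, 0.17 and 0.08 in the vehicle mice, a difference of -0.07 (SE 0.21). DEHP mouse 4 and vehicle mouse 1, low for Leydig markers, were again the lowest pair.

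Cry1, a cryptochrome that blocks CLOCK and BMAL1, stood at 0.01 and -0.22 in the DEHP mice, against -0.18, 0.03 and 0.36 in vehicle mice 1, 2 and 4 (probe at chromosome 10, 84673350 to 84673409). The difference was -0.17 (SE 0.24) with overlapping groups. A second Cry1 probe, like the second probes of Per2 and Cry2, was above background in no reading.

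Per1, Cry1 and Per3 carried a clock element before their start in the RefSeq promoters of build GRCm38.p6, and those windows are shown with the element in capitals. The table holds promoters of 9 of the 10 genes, each reaching from 250 bases before to 50 bases after a start, and both strands were searched.
Per1, E-box, chr11:69098756-69098815, plus strand: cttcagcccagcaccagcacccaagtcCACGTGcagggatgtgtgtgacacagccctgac
Cry1, E-box, chr10:85185082-85185141, minus strand: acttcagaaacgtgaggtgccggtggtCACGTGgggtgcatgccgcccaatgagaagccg
Per3, D-boxes, chr4:151044789-151044897, minus strand: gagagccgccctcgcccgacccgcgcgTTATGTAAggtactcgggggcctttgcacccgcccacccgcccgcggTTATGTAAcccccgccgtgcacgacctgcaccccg
The E-box began 166 bases before the start of Per1 and 60 bases before that of Cry1, and the D-boxes began 205 and 158 bases before that of Per3. Over all 32851 promoters of the table, 7.15% held an E-box (CACGTG), 0.938% a D-box (TTATGTAA) and 6.45% a ROR element (TAGGTCA or TGGGTCA). The letters are a description of these windows. Per1 and Cry1, which share the E-box, had differences of 0.72 and -0.17, neither of them past the test, and Per3 was too dim to be read.

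The nuclear receptors Nr1d1 and Nr1d2 encode REV-ERB alpha and beta, which repress Arntl. Nr1d1 was dim (brightest probe at chromosome 11, 98878251 to 98878753) and stood at 0.05 and -0.12 in the DEHP mice, against 0.14, 0.01 and -0.08 in vehicle mice 1, 2 and 4. The difference was -0.06 (SE 0.19). Nr1d2 (chromosome 14, 16018965 to 16019024) stood at 0.09 (mouse 1) and 0.08 (mouse 4) after DEHP, against -0.40, 0.07 and 0.16 for vehicle mice 1, 2 and 4. The DEHP mice differed from each other by 0.0041, while vehicle mouse 1 lay apart from the other 4. The difference between the groups was 0.14 (SE 0.24), and without vehicle mouse 1 it was -0.03.

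Dbp, the output gene, had a strong signal on every array (probe at chromosome 7, 41886169 to 41886228). It stood at 0.22 in DEHP mouse 1, -0.69 in DEHP mouse 4, -0.61 in vehicle mouse 1, 0.60 in vehicle mouse 2 and 0.48 in vehicle mouse 4. One mouse of each group was low, and DEHP mouse 1 lay between the low and the high mice. The means were -0.23 ± 0.64 (SD, n = 2) for DEHP and 0.16 ± 0.67 (SD, n = 3) for vehicle, a difference of -0.39 (SE 0.47) with a 95% interval from -1.56 to 0.78 and an adjusted p of 1.00 in limma. Without DEHP mouse 4 the difference turned to 0.06, and without DEHP mouse 1 it was -0.84.

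Dye swaps of Dbp had a median gap of 0.13. For DEHP mouse 1 over vehicle mouse 1 the log2 ratios were 0.75 and 0.92 with DEHP RNA in Cy5 and in Cy3, and for DEHP mouse 4 over vehicle mouse 2 they were -1.29 and -1.31. The gap was wider for DEHP mouse 1 over vehicle mouse 4, with -0.45 and -0.09. The sign was the same in 6 of 6 pairs, and for Clock in 5 of 6. For Nr1d2 it was the same in 3 of 6, and for Arntl in 1 of 6.

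**Figure D2:**
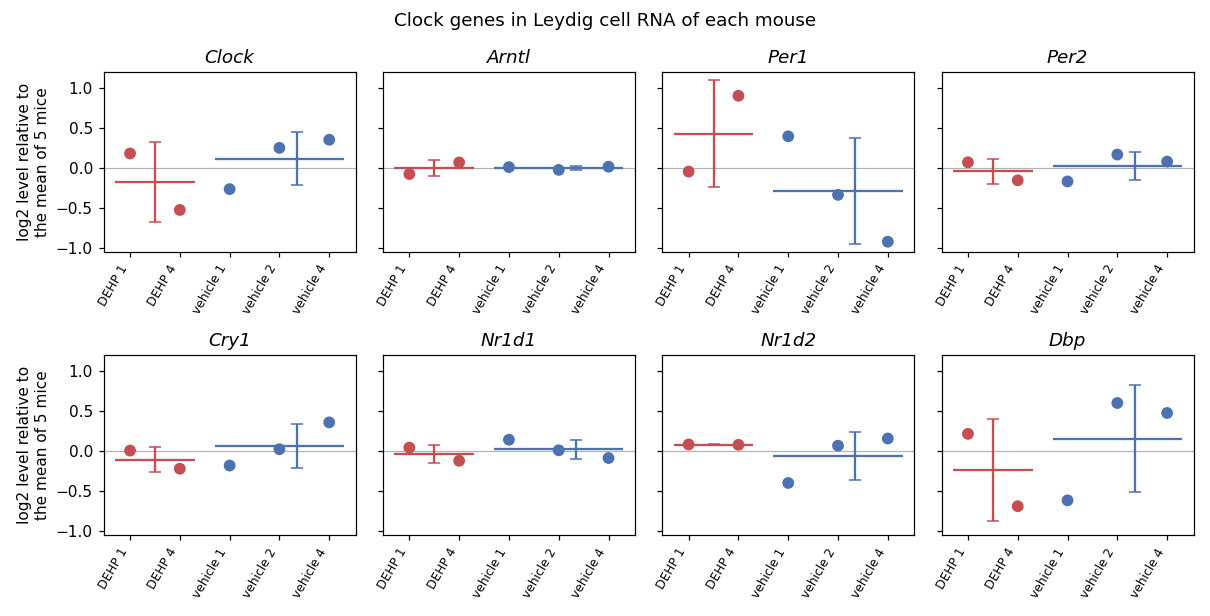
Log2 level (y axis, relative to the mean of the 5 mice) of the 8 tested clock genes in each DEHP mouse (red) and vehicle mouse (blue); horizontal lines are group means and bars are ± 1 SD (n = 2 and n = 3). Dbp and Clock were low in DEHP mouse 4 and vehicle mouse 1, where Per1 was high. Arntl and Nr1d1 ran from -0.08 to 0.07 and from -0.12 to 0.14. Both were dim, so these small ranges do not show a steady level.

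**Figure D3:**
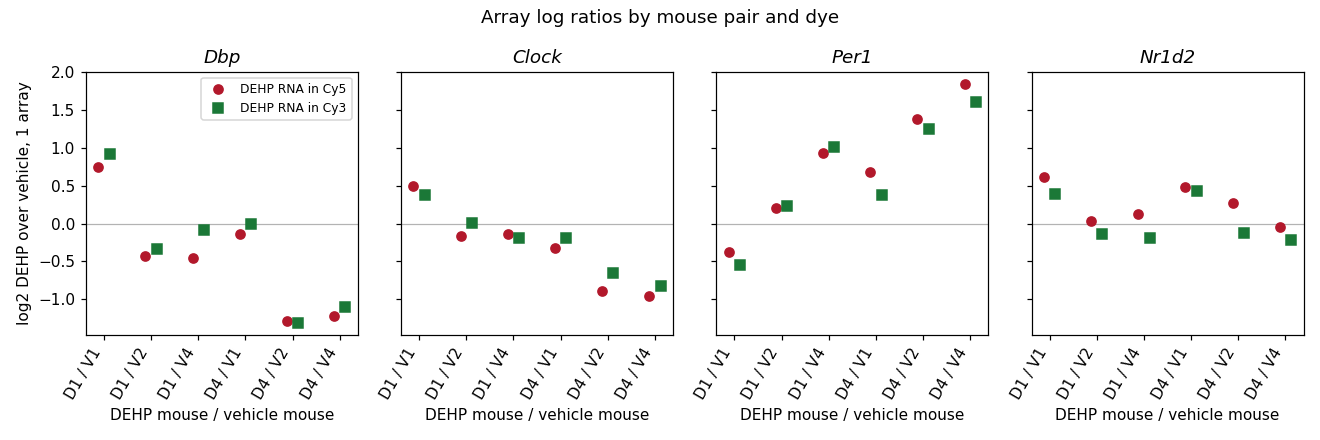
Log2 ratio of DEHP over vehicle RNA (y axis) on each of the 12 arrays for Dbp, Clock, Per1 and Nr1d2, by pair of DEHP mouse (D) and vehicle mouse (V), with DEHP RNA in Cy5 (circles) or Cy3 (squares). Both dyes give the same sign in 6 of 6 pairs for Dbp and Per1, in 5 of 6 for Clock and in 3 of 6 for Nr1d2, and Per1 ranges from -0.55 to 1.85 over the arrays.

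Over the 8 tested genes, DEHP and vehicle mice were compared first. In limma, 0 of the 8 reached an adjusted p of 0.05, where 0% of all genes tested did. Unadjusted p-values under 0.05 were found for 136 of all genes tested and for 0 of the 8. For 0 of 8 the mice of the groups did not overlap, where this held for 9.17% of all genes. The median difference of the 8 genes was -0.06, with 2 above and 6 below 0, and that of all genes was -0.01. Cry1 and Nr1d1, both below 0, passed the filter through vehicle mice alone. Each was above background in 2 of 6 readings of either DEHP mouse, so their signs do not count towards a direction. The median size of the difference was 0.16 for the clock genes and 0.16 for all genes. A two-sided exact permutation test of 2 against 3 mice cannot give a p under 0.2. The 95% intervals of Per1, Dbp and Clock (-1.07 to 0.50 for Clock) reach past a doubling or halving in 1 direction.

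**Figure D4:**
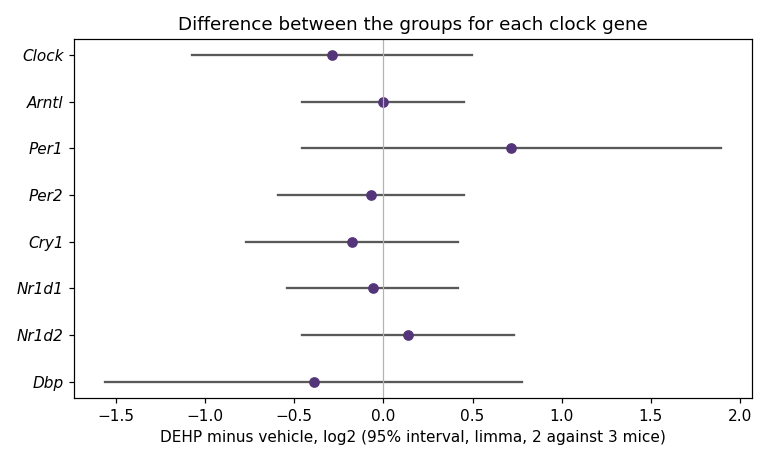
Difference of DEHP minus vehicle (x axis, log2) for each tested clock gene, with the 95% interval of the limma fit on 5 mice. Every interval includes 0, and those of Per1 (-0.46 to 1.89) and Dbp (-1.56 to 0.78) are widest.

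Mice of the same group were compared next. These comparisons use the 12 array log ratios as repeated readings and so compare extracts, not conditions. DEHP mouse 4 against DEHP mouse 1 passed the test for 4 of 8 clock genes, against 77.4% of all genes. Per1 was higher in DEHP mouse 4 by 0.95 (SE 0.07, adjusted p 1.61e-07 in limma), a 1.93-fold difference. Dbp was lower (-0.91, SE 0.05, adjusted p 8.24e-09), as were Clock (-0.71, SE 0.05) and Per2 (-0.23, SE 0.07). Arntl at 0.15, Cry1 at -0.23, Nr1d1 at -0.16 and Nr1d2 at -0.0041 did not pass.

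This contrast depended on the scaling. Loess, used throughout, centres each array at every level of brightness, whereas median centring takes 1 value off the whole array. With median centring the difference of DEHP mouse 4 minus DEHP mouse 1 was -0.0082 for Dbp (adjusted p 0.952 in limma) and -0.11 for Clock (adjusted p 0.312), so both calls ended. The call of Per2 ended too (-0.12, adjusted p 0.244), while Arntl passed at 0.34 (adjusted p 0.00294), Nr1d2 at 0.33 (adjusted p 0.00324) and Per1 at 1.32. The clock genes called were then 3 higher (Arntl, Per1 and Nr1d2) and 0 lower, in place of 1 higher and 3 lower. Of all genes, 54.7% were then called higher and 16.3% lower, in place of 36.3% and 41.1%. Over all genes the median of this contrast was 0.30 with median centring and -0.05 with loess, and over the 697 genes within 0.5 of Dbp in mean log2 intensity it was 0.84 and -0.05. Dbp thus lay below the median of those genes under either scaling.

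Vehicle mouse 1 against the mean of vehicle mice 2 and 4 passed for 7 of 8 clock genes, against 72.1% of all genes. Dbp was lower by a log2 value of -1.16 (SE 0.05, adjusted p 2.47e-09 in limma), a 2.23-fold difference, and Per1 was higher by 1.03 (SE 0.07, adjusted p 1.67e-07), 2.04-fold. Clock at -0.57, Nr1d2 at -0.51, Cry1 at -0.37 and Per2 at -0.29 were lower, and Nr1d1 at 0.18 was higher (adjusted p 0.0481). Arntl at 0.02 did not pass. For Dbp, Clock, Per1 and Nr1d2 the call and its direction held in 6 of 6 alternatives, with ranges of -1.16 to -1.04, -0.69 to -0.51, 0.87 to 1.49 and -1.14 to -0.45. The other calls were less stable: that of Per2 ended in 2 of 6 alternatives (-1.96 to -0.25), that of Cry1 in 3 of 6 (-0.97 to -0.26) and that of Nr1d1 in 4 of 6 (0.076 to 0.92). Without slide 1 the count was 4 of 8, against 61.6% of all genes.

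Vehicle mice 2 and 4 were compared last. Of the 8 clock genes 1 passed, against 57.4% of all genes: Per1, higher in vehicle mouse 2 by 0.59 (SE 0.08, adjusted p 0.000132 in limma). Dbp differed by 0.12 (adjusted p 0.0800) and Clock by -0.10. With median centring, under which the median of all genes moved from 0.01 to -0.19, Dbp turned to -0.31 and Clock passed at -0.45. Per1 passed in each of the 3 contrasts under every alternative run for it.

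With loess, Dbp and Clock were low with the Leydig markers in DEHP mouse 4 and vehicle mouse 1. Per1 was high in those mice with the spermatid and most spermatocyte markers. Between vehicle mice 2 and 4 the order differed, with Per1 at -0.34 and -0.92 and the spermatid median at -0.62 and -0.36. With median centring Dbp no longer separated the DEHP mice, whereas the Leydig markers still did. In DEHP mouse 4 against DEHP mouse 1, 10 of 10 Leydig markers were lower and 14 of 15 spermatid markers higher past the test. Of all genes, 41.1% were lower and 36.3% higher in this contrast. In vehicle mouse 1 against the other vehicle mice, 9 of 10 Leydig markers were lower and 13 of 15 spermatid markers higher. There, 38.2% of all genes were lower and 33.9% higher. These shares and all marker counts are with loess. With median centring the shares of the first contrast were 16.3% and 54.7%, and markers were not counted. Spermatocyte markers were higher for 6 and lower for 1 of 9 in the first contrast, and higher for 7 and lower for 1 in the second. Macrophage markers, of another interstitial cell, were lower for 8 of 10 and 7 of 10, myoid markers for 5 of 6 and 3 of 6, and endothelial markers for 5 of 5 tested in both. Sertoli cell markers were mixed, with 1 higher and 4 lower of 10 in the first contrast and 4 and 4 in the second. Between DEHP and vehicle mice 0 markers passed in limma in any of these lists. Unadjusted p-values under 0.05 in limma were found for 2 of 15 spermatid and 1 of 10 Sertoli markers, against 136 of all 15830 genes. The groups did not overlap for 3 of 15 spermatid, 2 of 10 Sertoli and 1 of 10 macrophage markers. In the other marker lists this held for 0, and over all genes for 9.17%. The median differences were -0.23 for Leydig, 0.46 for spermatid, -0.06 for spermatocyte, -0.31 for Sertoli, -0.0080 for macrophage, -0.48 for myoid and -0.11 for endothelial markers. The part of the cell makeup in the values of the clock genes was not tested.

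**Figure D5:**
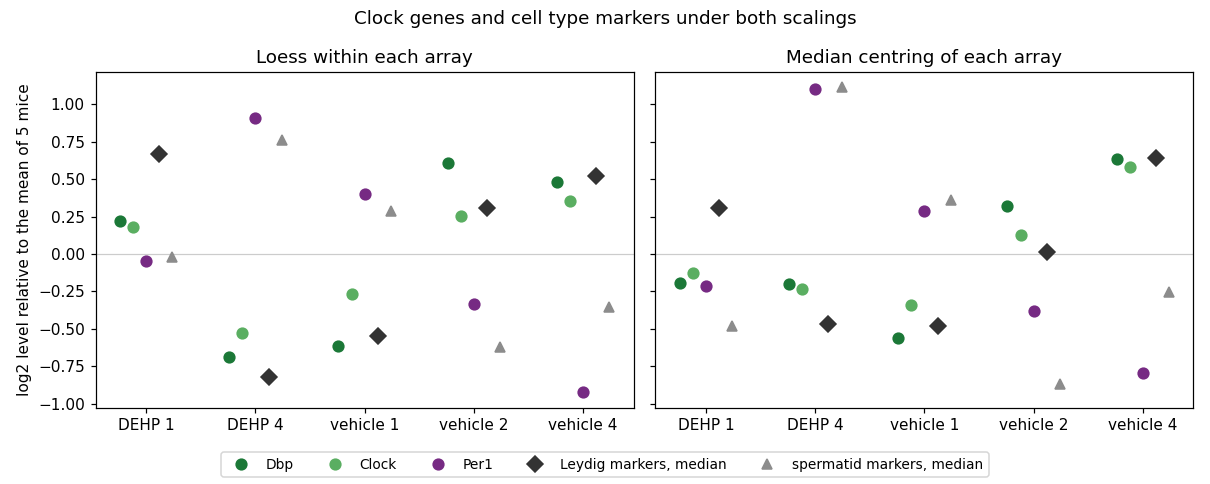
Log2 level (y axis, relative to the mean of the 5 mice) of Dbp, Clock and Per1 (circles) and the median of the Leydig (diamonds) and spermatid (triangles) marker lists in each mouse, with loess (left) or median centring (right). With loess, Dbp and Clock are low where the Leydig markers are low, in DEHP mouse 4 and vehicle mouse 1; with median centring Dbp lies at -0.19 and -0.20 in the DEHP mice.

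Other parts of the clock machinery were read from lists of related genes. Among transcriptional partners of the core loop, 10 of 14 genes were tested and 0 passed in limma, with 5 above and 5 below 0. Rora, a nuclear receptor that activates Arntl through the same ROR elements that REV-ERB proteins bind, stood at -0.05 (mouse 1) and 0.80 (mouse 4) after DEHP, against 0.07, -0.23 and -0.60 for vehicle mice 1, 2 and 4, a difference of 0.63 (SE 0.34). Tef, a relative of Dbp in the same family of D-box factors, stood at -0.18 and 0.73 against 0.30, 0.01 and -0.87, a difference of 0.46 (SE 0.45). Both were high in DEHP mouse 4 and lowest in vehicle mouse 4, as was Per1.

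The D-box factors therefore did not share 1 order of mice. Hlf, the other relative of Dbp, named here after its values were seen, was lower in vehicle mouse 1 than in vehicle mice 2 and 4 by a log2 value of -1.44 (adjusted p 1.14e-08 in limma), where Tef was higher by 0.73 (adjusted p 6.94e-07) and Dbp lower. In DEHP mouse 4 against DEHP mouse 1, Hlf was at -0.76 and Tef at 0.91, and with median centring they were at -0.34 and 1.35, past the test in both. Of the 10 partners, 4 were higher and 6 lower in that contrast (36.3% and 41.1% of all genes), and 5 higher and 2 lower with median centring (54.7% and 16.3%).

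A list of kinases, ligases and other partners of clock proteins, among them Usp2, Nono and Wdr5, was tested for 15 of 16 genes. Between the groups 0 passed, with 4 above and 11 below 0. Dyrk1a, a kinase of CRY2, stood at -0.27 and -0.05 in the DEHP mice, against 0.16, 0.04 and 0.13 in the vehicle mice. The difference was -0.27 (SE 0.19) without overlap. In this list 1 of 15 genes had no overlap, where 9.17% of all genes tested had none. Usp2, a deubiquitinase of clock proteins whose gene is itself rhythmic in many tissues, stood at -0.34 and 0.84 against 0.06, -0.10 and -0.46, a difference of 0.41 (SE 0.39). DEHP mouse 4 again stood highest. Between the DEHP mice 3 of the 15 were higher and 11 lower in mouse 4 (36.3% and 41.1% of all genes), and 5 and 2 with median centring (54.7% and 16.3%).

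Genes whose transcripts follow the clock or daily hormones in other tissues were tested for 13 of 14, with 0 past the test, 4 above and 9 below 0. Id2, an inhibitor of helix-loop-helix factors, stood at 0.0011 and -0.72 in the DEHP mice, against -0.81, 0.65 and 0.88 in the vehicle mice, a difference of -0.60 (SE 0.56). Fkbp5, a glucocorticoid-induced cochaperone, stood at 0.10 and 0.13 against 0.08, -0.16 and -0.15, a difference of 0.19 (SE 0.19) without overlap. In this list 1 of 13 genes had no overlap, where 9.17% of all genes tested had none. In DEHP mouse 4 against DEHP mouse 1, 4 of the 13 were higher and 8 lower (36.3% and 41.1% of all genes). With median centring 5 were higher and 5 lower (54.7% and 16.3%). In vehicle mouse 1 against vehicle mice 2 and 4, 3 of the 13 were higher and 9 lower (33.9% and 38.2% of all genes), and 1 and 8 with median centring (25.4% and 38.1%). The median differences of the 3 lists between the groups were -0.06, -0.08 and -0.09, and 0 of their genes had an unadjusted p under 0.05 in limma.

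The genes most like Dbp over the 12 array log ratios, with the dye effect taken out, were Tradd (Pearson r = 0.9988), Vdac1 (0.9985) and Srsf5 (0.9983). Tradd stood at 0.30 and -0.65 in the DEHP mice, against -0.66, 0.55 and 0.46 in the vehicle mice, close to Dbp in each. Of 13392 genes compared, 1919 (14.3%) had an r over 0.9 with Dbp and 1719 had one under -0.9, so that its order of mice was a common one. For Arntl the nearest were Scaf4 (0.91), Fut8 (0.89) and Mfap3 (0.88), and 1 gene was over 0.9. Arntl lay near background and its dyes gave the same sign in 1 of 6 mouse pairs. Its likeness to these genes therefore does not show a shared order of mice. The 12 arrays share 5 mice, and the values describe likeness over these arrays.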

How the data were processed

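The deposited scanner files, written by Feature Extraction 9.5.1.1 with probe positions on mm7 (per the file headers), hold the intensity of each spot, a processed intensity and the log10 of Cy5 over Cy3. The deposited value table holds the authors' log2 ratios for 13669 spots, per the submitters' processing notes made with limma; set against the scanner ratios it ran as DEHP over vehicle (r from 0.915 to 0.993, medians from -0.06 to 0.00). Its filter and centring are unknown, and it holds Clock, Nr1d2 and Per1 only.

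Here R 4.3.3 and limma 3.58.1 were used: normexp background (offset 50), loess within arrays, outlier spots left out. A dye effect and 1 value per mouse were fitted by least squares. Probes were kept where at least 2 mice had them well above background on a share of at least 0.5 of their arrays, and the brightest probe stood for a gene. Mouse values were fitted with limma over all genes, with Benjamini-Hochberg adjustment; extract contrasts used the 12 ratios. The fits were tested on simulated data. The offset narrows differences of dim probes. The number of arrays limits precision.

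The genes and lists were chosen with earlier results of these data known. Named genes were all 10 clock genes, from each pathway list the 2 of lowest p as none passed, and the 3 genes most like Arntl and Dbp. Of the pathway genes, Npas2, Arntl2, Rorb, Bhlhe41 and Btrc were not tested and Zbtb16 was not matched. Alternatives covered background, scaling, filter, probes, dye, slide, left-out mice, the replicate block and the value table.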

Additional observations from a re-analysis of the deposited data

How the results depend on the processing

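The count of clock genes past the test between DEHP and vehicle mice was 0 under every alternative run, with limma and Benjamini-Hochberg adjustment. The count of genes whose mice do not overlap went from 0 to 1 with no filter, where 8.92% of all genes did not overlap. That gene was Per3, above background in 1 DEHP reading and 0 vehicle readings. On slides 1, 2 and 3 alone the count was 2, 1 and 5, where 18%, 20% and 62% of all genes did not overlap. Slides 1 and 2 hold 1 dye orientation each, and slide 3 holds 1 vehicle mouse. Leaving out each mouse in turn gave counts from 0 to 6, the highest without DEHP mouse 1, where 56.6% of all genes did not overlap; fewer mice overlap less by construction. The median difference ran from -0.16 to 0.05 over the left-out mice and was 0.17 in the authors' value table, which holds 3 of the genes. Of the comparisons made, a dye effect per slide could be fitted for DEHP mouse 4 against mouse 1 only, since slides 1 and 2 hold 1 dye orientation each. Without slide 3 no contrast with vehicle mouse 4 has a value.

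The labels number mice 1 and 4 in both groups. Whether mice of the same number form a pair was not settled. Deviations from the group means correlated across genes at -0.73 for number 1 and -0.56 for number 4. The DEHP group holds only mice 1 and 4, so their deviations mirror each other. These correlations therefore cannot decide the pairing. With the mouse number as replicate block 0 of 8 genes passed and 0 did not overlap, where 9.17% of all genes did not overlap. The median difference was then -0.04, and Per2 turned to 0.0026.

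Signs turned mostly for genes near background, and the cause was not tested. Between the groups, processed signals gave 0.062 for Per2 and 0.011 for Nr1d1, and median centring 0.040 for Arntl. Slide 2 alone gave 0.055 for Arntl and 0.15 for Cry1, and slide 3 alone 0.048 for Nr1d1 and -0.077 for Nr1d2. Over the left-out mice the difference ran from -0.077 to 0.068 for Arntl, -0.64 to 0.068 for Clock, -0.18 to 0.045 for Per2, -0.14 to 0.022 for Nr1d1, -0.032 to 0.25 for Nr1d2 and -0.84 to 0.062 for Dbp. Where 1 DEHP mouse is left, its spread is taken to be that of vehicle mice. For DEHP mouse 4 minus mouse 1, Nr1d2 was at 0.33 with median centring and 0.043 without slide 3. For vehicle mouse 1 against mice 2 and 4, the count was 4 without slide 1, against 61.6% of all genes. Arntl in this contrast was at -0.067, -0.082 and -0.0055 with processed signals, with median centring and without slide 2. For vehicle mouse 2 minus mouse 4, the count was 2 with processed signals and with median centring, against 61.4% and 47.7% of all genes. Processed signals gave -0.0081 for Per2 and 0.51 for Cry1, no background correction 0.086 for Arntl, and median centring -0.034 for Per2 and -0.31 for Dbp. Without slide 1 Per2 was at -0.038 and Nr1d1 at -0.044, and without slide 2 Arntl was at 0.18.

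Signal over background limits Arntl, Per2, Cry1 and Nr1d1, and 5 animals limit every comparison of the groups. With processed signals, which carry no offset, Per2 in vehicle mouse 1 was lower by -1.96 on the log2 scale in place of -0.29. With no background correction, also without an offset, it was lower by -0.27.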
